A study of Arabidopsis thaliana with 18 samples.

Results

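The 10 genes described here encode proteins of seed oil bodies, out of 37861 nuclear genes in the deposited counts. They comprise 5 seed oleosins, *OLEO1* (AT4G25140), *OLEO2* (AT5G40420), *OLEO3* (AT5G51210), *OLEO4* (AT3G27660) and AT3G01570, 3 oleosin-like genes, AT2G25890, AT3G18570 and AT1G48990, the caleosin *CLO1* (AT4G26740, also *ATS1*) and the steroleosin *HSD1* (AT5G50600). The set was chosen by gene family with earlier results of these data known, and the zero counts of AT2G25890 in some groups entered that choice. AT2G25890 is therefore described without a test, and the other 9 genes were tested. RNA came from dissected seed coats and endosperms of Col seeds, each library from siliques of 3 or 4 plants, with 3 libraries in each of 6 groups. The groups were *myb107-2*, a mutant of the transcription factor gene *MYB107*, at 11 DAP (days after pollination) and 22 °C, WT at 11 DAP and 22 °C, WT moved to cold at 11 DAP for 6 h, *myb107-2* and WT moved to cold at 11 DAP for 48 h (11 DAP+Cold), and WT kept at 22 °C until 13 DAP. The cold was at 13 °C by the sample labels, and the sources used here differ on this temperature. Seeds after 48 h of cold were also 48 h older than those at 11 DAP, and no *myb107-2* seeds of 13 DAP were sequenced, so that cold and age cannot be told apart in the mutant.

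Oil bodies are droplets of triacylglycerol in which seeds store energy for the seedling, and they fill the embryo and the endosperm during maturation. Oleosins are small hairpin proteins that coat the droplet and keep it from fusing with others, caleosins are calcium-binding peroxygenases of the same surface, and steroleosins are hydroxysteroid dehydrogenases anchored there. Genes of this class are known targets of the maturation regulators ABI3, FUS3 and LEC2, B3-domain factors that bind the RY element, and of bZIP factors that bind the G-box.

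The 250 bases before the annotated gene start were read for all 10 genes from RefSeq (TAIR10.1). The RY core CATGCA, searched on both strands, lay in 10 of 10 windows, against 8.43% of the 27443 windows of the same length before protein-coding genes, and 5 of the 10 held at least 2 copies, against 1.66%. In *OLEO4* and AT1G48990 these copies overlap each other. The G-box CACGTG, which shares no base with any RY core here, lay in 5 of the 10 windows, against 6.49%. Exons of other genes covered 163 bases of the AT2G25890 window, 128 of AT3G18570, 110 of AT3G01570 and 5 of *CLO1*. The windows of 4 of the genes that were lower after 48 h of cold than at 13 DAP in WT are shown 5′ to 3′. No expression result rests on these sequences. Capitals mark the RY core in either direction and the G-box.
OLEO1, chr4:12900180-12900429, + strand: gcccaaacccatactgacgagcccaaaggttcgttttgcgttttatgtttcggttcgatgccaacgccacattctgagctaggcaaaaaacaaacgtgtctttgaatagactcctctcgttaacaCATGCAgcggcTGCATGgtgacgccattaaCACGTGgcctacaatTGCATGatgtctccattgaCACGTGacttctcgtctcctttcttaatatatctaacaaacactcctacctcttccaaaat
OLEO3, chr5:20819818-20820067, + strand: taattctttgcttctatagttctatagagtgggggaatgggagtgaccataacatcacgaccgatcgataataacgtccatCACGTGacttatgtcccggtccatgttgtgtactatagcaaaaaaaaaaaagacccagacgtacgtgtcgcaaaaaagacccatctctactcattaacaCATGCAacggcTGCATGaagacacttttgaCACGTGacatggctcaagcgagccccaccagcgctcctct
OLEO4, chr3:10242994-10243243, + strand: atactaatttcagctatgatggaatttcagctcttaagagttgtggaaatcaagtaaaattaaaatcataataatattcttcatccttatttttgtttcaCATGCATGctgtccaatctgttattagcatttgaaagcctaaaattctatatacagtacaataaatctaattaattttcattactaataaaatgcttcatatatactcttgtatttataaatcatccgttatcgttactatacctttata
CLO1, chr4:13475372-13475621, - strand: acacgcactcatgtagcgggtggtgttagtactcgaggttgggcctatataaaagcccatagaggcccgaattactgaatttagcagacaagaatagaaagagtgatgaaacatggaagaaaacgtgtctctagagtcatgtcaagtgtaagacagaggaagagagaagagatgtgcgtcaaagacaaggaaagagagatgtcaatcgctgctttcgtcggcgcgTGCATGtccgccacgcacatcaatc
In *OLEO1* and *OLEO3*, 2 RY cores faced each other across 5 bases, with a G-box 13 bases further on (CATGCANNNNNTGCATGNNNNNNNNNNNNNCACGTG). This arrangement was noticed in the 2 windows and then searched on both strands in all of them. It occurred in 3 of 27443 windows (0.0109%), and the third, before *PMSR4*, held the same bases as the *OLEO1* window, because *PMSR4* starts on the other side of it. A match of letters is a description of the sequence and shows no binding. The expression of *OLEO1* and *OLEO3* differed over the groups, as described below.

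Totals were 43.1 to 84.0 M estimated counts per library (median 65.4 M), and the 10 genes held 0.520% to 1.33% of them. Levels are given as CPM, counts scaled by library size with TMM factors to a common total, and levels of different genes are compared only per kb of exon. *MYB107* was at 3.01 ± 0.752 CPM in *myb107-2* and 34.3 ± 6.36 CPM in WT at 11 DAP (SD, n = 3 each). WT 13 DAP replicate 1 stood apart, with 47.0% of its counts in genes of the ribosomal RNA units against 6.00% to 16.5% in the other 17 libraries, and the log2 fold changes of the tested genes that rest on it are given with and without it. Marker genes of the labelled tissue and of embryo meristems were read. The 12 seed coat genes summed to 1055 to 2869 CPM over the libraries, with *TT12* at or under 3 counts in WT at 13 DAP. *TT10* gave most of the mean seed coat sum in every group. The 9 endosperm genes summed to 6428 to 30648 CPM, nearly all from *EPR1*, with 1 to 3 of them at or under 3 counts in a group, among *FWA*, *FIS2*, *PHE1* and *MYB115*. Of 10 embryo meristem genes, 3 to 8 lay at or under 3 counts in a whole group, *CLV3* and *CUC2* in every group, and the list summed to 13.1 to 31.8 CPM, nearly all from *CUC1*. This last list holds meristem genes only, so RNA of other embryo cells was not measured, and its part in the results was not tested. In such bulk RNA, fewer cells of a type and less RNA per cell cannot be told apart.

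Per kb of exon, *OLEO1* had the highest level of the set, with a mean of 3268 CPM per kb over the 18 libraries, rank 20 of 26954 genes. AT3G01570 followed at 1997 CPM per kb, *OLEO2* at 1797, *OLEO4* at 681, *OLEO3* at 541 and *CLO1* at 502 CPM per kb. The other 4 genes were much lower, AT1G48990 at 54.8 CPM per kb, *HSD1* at 46.1, AT3G18570 at 29.6 and AT2G25890 at 15.2 CPM per kb. The 6 highest genes lay within the first 114 ranks, whereas the lowest, AT2G25890, had rank 5649.

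**Figure D1:**
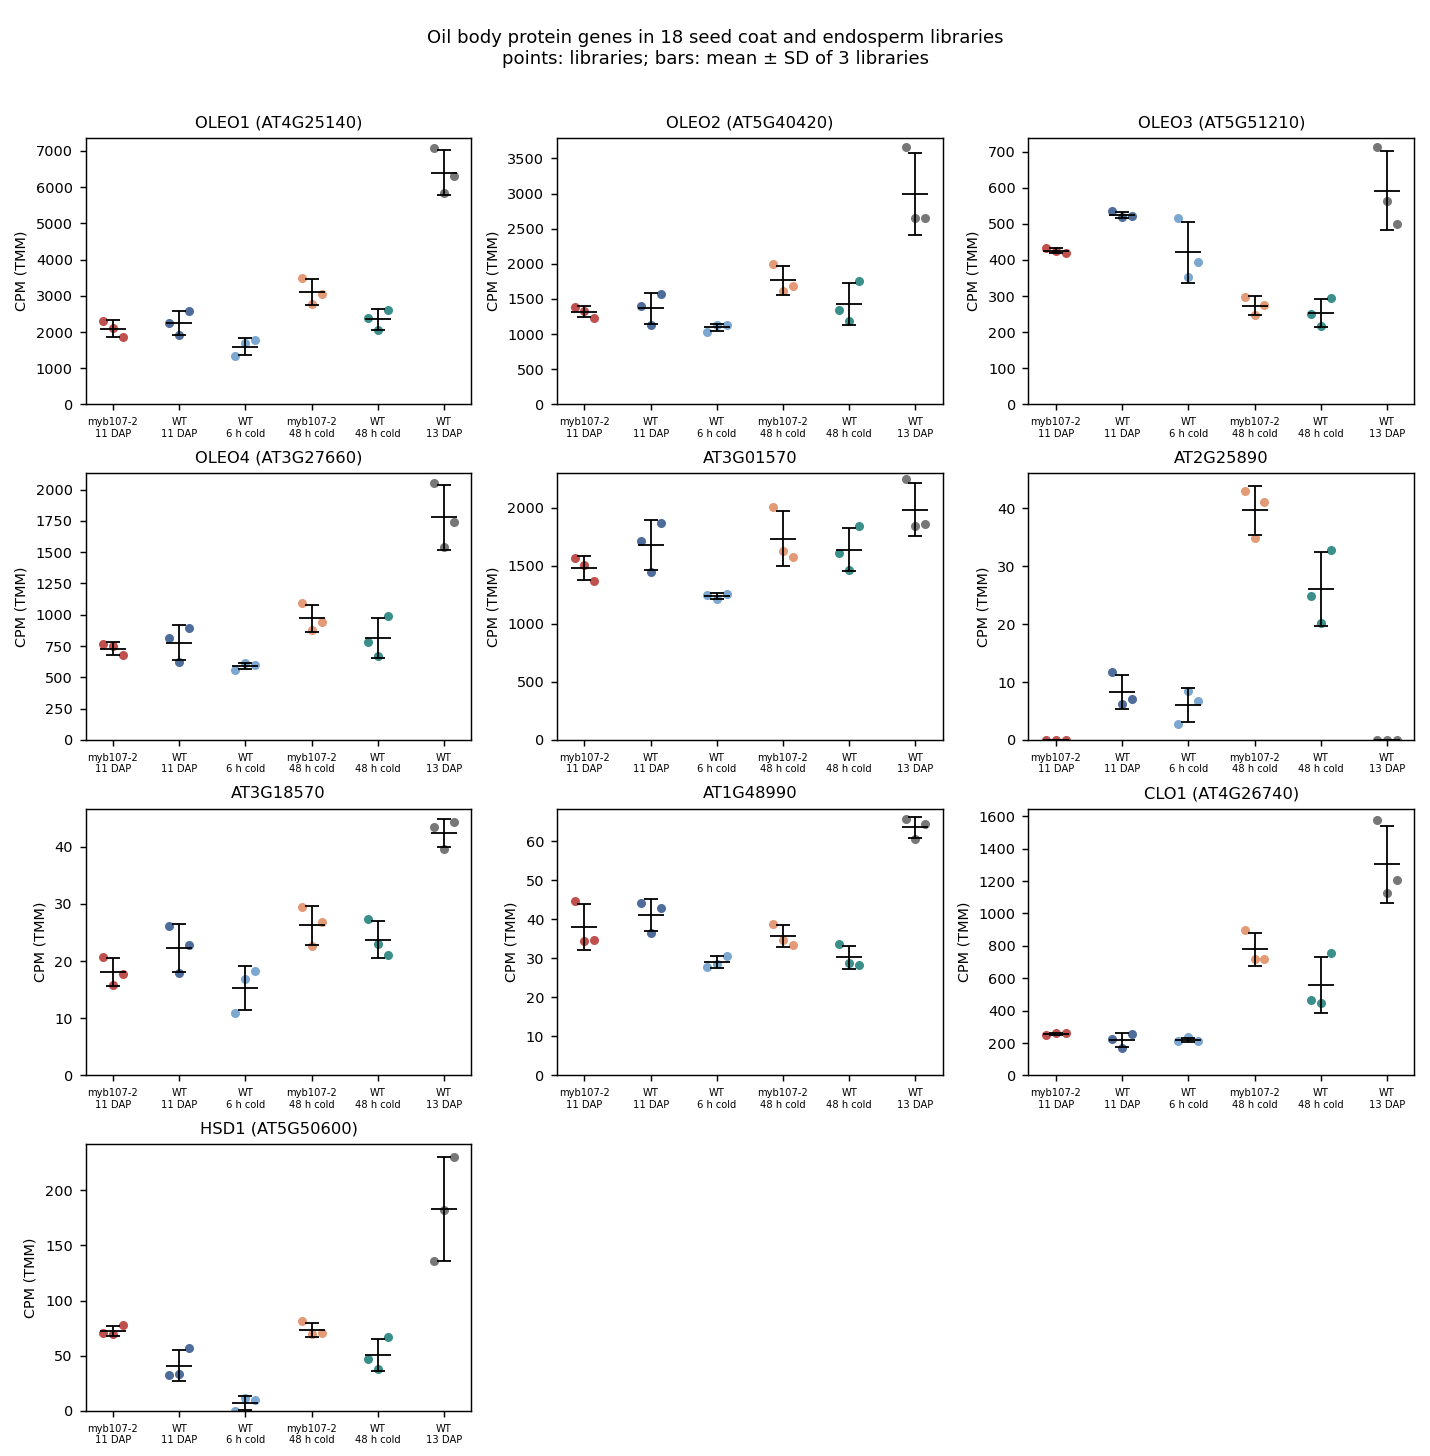
Level in CPM (TMM scaling, linear axis from 0) of each of the 10 genes in the 18 libraries, with 1 panel per gene, points for libraries and black bars for the mean ± SD of 3 libraries in each group. WT at 13 DAP is the highest group for 9 genes, while AT2G25890 is at 0 there and in *myb107-2* at 11 DAP.

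Whether loss of MYB107 changed these genes was tested at 11 DAP and at 11 DAP+Cold. None of the 9 tested genes was called at either time, where 0.898% and 1.85% of the 26068 genes tested were called in either direction. A call is an adjusted p of at most 0.05 (Benjamini-Hochberg over all genes, quasi-likelihood test of edgeR) and a change of 1 or more on the log2 scale, up or down. At an unadjusted p under 0.05 there were 2 genes at 11 DAP and 3 at 11 DAP+Cold. Over the 9 genes the median on the log2 scale came to -0.12 at 11 DAP and 0.24 at 11 DAP+Cold, against 0.00 over all genes at both, and standard errors were 0.13 to 0.20. The embryo meristem marker sum, nearly all *CUC1*, did not overlap between the genotypes. At 11 DAP it was 19.0 to 22.3 CPM in *myb107-2* and 13.6 to 18.8 CPM in WT. At 11 DAP+Cold it was 28.1 to 31.8 CPM in *myb107-2* and 21.2 to 27.5 CPM in WT. Its part was not tested.

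*OLEO1*, the major seed oleosin, had 2318, 2098 and 1864 CPM in *myb107-2* and 2262, 1914 and 2574 CPM in WT at 11 DAP. Its groups overlapped there, with a log2 fold change of -0.12 (SE 0.17, adjusted p = 0.85, edgeR). At 11 DAP+Cold it had 3480, 2784 and 3048 CPM in *myb107-2* and 2400, 2049 and 2621 CPM in WT. All 3 mutant libraries were above all WT libraries, by 0.38 on the log2 scale (SE 0.17, interval of 2 SE from 0.04 to 0.72), which did not pass the test.

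*OLEO3*, which encodes a small seed oleosin, had 434, 425 and 419 CPM in *myb107-2* and 534, 518 and 521 CPM in WT at 11 DAP. The mutant libraries all lay below WT, by a small step (log2 fold change -0.32, SE 0.13), without a call. At 11 DAP+Cold *OLEO3* averaged 273 ± 25.9 CPM in *myb107-2* and 253 ± 38.98 CPM in WT (SD, n = 3 each), and the groups overlapped.

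*HSD1*, the steroleosin, had 70.2, 69.5 and 77.5 CPM in *myb107-2* and 32.2, 33.9 and 57.1 CPM in WT at 11 DAP. Every mutant library was above every WT library, with a log2 fold change of 0.81 (SE 0.20, adjusted p = 0.063, edgeR), short of both limits of a call. Without WT replicate 3 at 11 DAP, the highest of its group, it was called with a log2 fold change of 1.11. At 11 DAP+Cold the order was the same, with 81.1, 69.7 and 70.4 CPM in *myb107-2* and 47.3, 38.2 and 66.7 CPM in WT (log2 fold change 0.54, SE 0.20). The count of *HSD1* is uncertain, because all of its 50-base stretches occur in a second copy, AT5G50700, and its share of both copies' counts was 49.98% to 50.1% in the 17 libraries with counts.

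Whether the effect of *myb107-2* differed between 11 DAP+Cold and 11 DAP was tested in the same fit, at the adjusted p alone. None of the 9 genes was called, where 0.28% of genes were, and the smallest adjusted p was 0.62 (edgeR), with 1 gene at an unadjusted p under 0.05. The differences on the log2 scale ran from -0.27 for *HSD1* to 0.50 for *OLEO1*, with a median of 0.35 against 0.01 over all genes.

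AT2G25890, an oleosin-like gene, was listed at 0 in all 3 libraries of *myb107-2* at 11 DAP and had 11.7, 6.14 and 6.999 CPM in WT at 11 DAP. After 48 h of cold the order was the other way, with 43.0, 34.9 and 41.0 CPM in *myb107-2* and 24.9, 20.2 and 32.9 CPM in WT. It had 2.78, 8.52 and 6.78 CPM in WT after 6 h of cold, and 0 again in all 3 libraries of WT at 13 DAP. So it was absent from the counts of 2 groups and highest after 48 h of cold in both genotypes.

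AT2G25890 lies at chr2:11037303-11038179 on the + strand (TAIR10.1), in 1 exon. The whole of it falls within the first exon, chr2:11037213-11038191, of 2 of the 4 annotated transcripts of *AUR2* (AT2G25880, - strand), which encodes an Aurora kinase of cell division, outside the coding part of *AUR2*. Libraries were made with a kit that marks strand, but whether the counting used strand is not given in the sources used here.

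*AUR2* was high where AT2G25890 was at 0. In the 6 libraries with AT2G25890 at 0, *AUR2* had 19.2 to 114 CPM, and in the other 12 it had 6.80 to 18.3 CPM, so that these ranges did not overlap. These 6 libraries are the replicates of *myb107-2* at 11 DAP and of WT at 13 DAP. In *myb107-2* at 11 DAP, *AUR2* had 19.2, 23.4 and 25.5 CPM, against 8.83, 11.1 and 9.63 CPM in WT. At 13 DAP in WT it had 114, 90.6 and 74.4 CPM. No test of *AUR2* is given, since it overlaps AT2G25890, whose zero counts entered the choice of genes. The ranges of *AUR2* above were split on those same zero counts, so they are a description only.

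The summed level of both genes differed less between the genotypes at 11 DAP than either gene did, with 22.7 ± 3.22 CPM in *myb107-2* and 18.1 ± 2.10 CPM in WT (SD, n = 3 each), and the groups overlapped. At 11 DAP+Cold the sum was 49.9 ± 5.35 CPM in *myb107-2* and 37.7 ± 11.8 CPM in WT, also with overlap. In WT it was 14.6 ± 0.908 CPM after 6 h of cold and 93.1 ± 20.1 CPM at 13 DAP, higher than in any other group. The part of the overlap in the zero counts was not tested. The next genes on each side did not follow this pattern. AT2G25870 had 13.0 ± 1.14 CPM in *myb107-2* and 11.5 ± 0.990 CPM in WT at 11 DAP, and *ATCTH* (AT2G25900) had 22.2 ± 3.77 CPM in *myb107-2* and 24.5 ± 16.7 CPM in WT, and neither was called in any comparison.

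**Figure D2:**
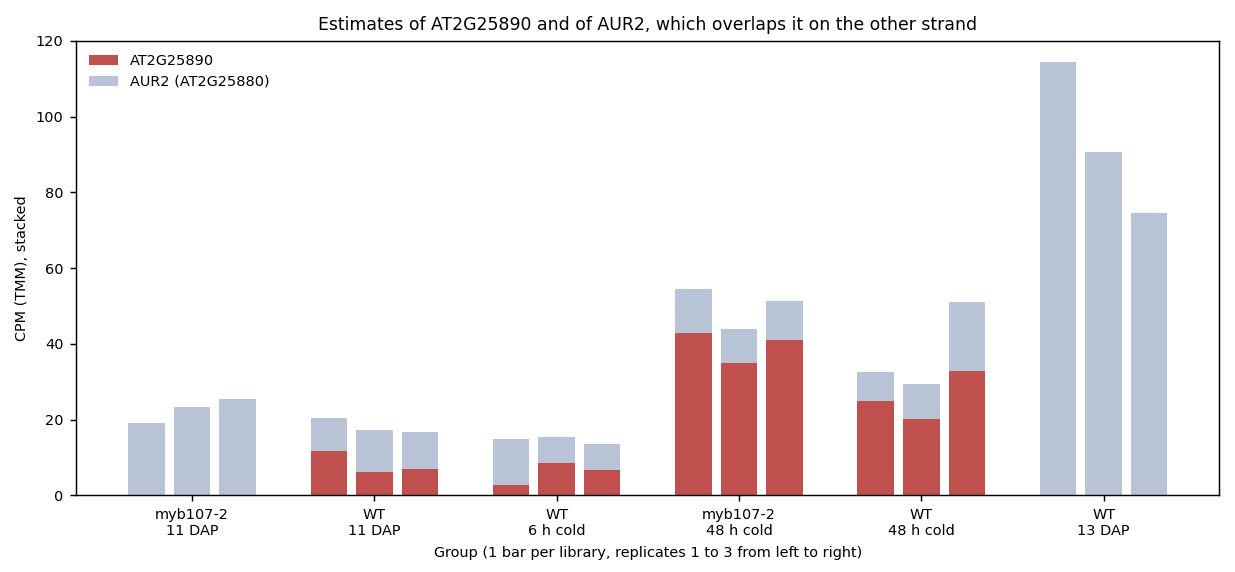
Stacked bars of the CPM (TMM scaling, axis from 0) of AT2G25890 and of *AUR2*, which overlaps it on the other strand, with 1 bar per library in replicate order within each group. AT2G25890 has no bar in *myb107-2* at 11 DAP and WT at 13 DAP, where *AUR2* alone reaches 19.2 to 25.5 CPM and 74.4 to 114 CPM.

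Zero counts in a whole group were not particular to this gene. Of 11331 genes at 10 CPM or more in all 3 libraries of some group, 62 were listed at 0 in all 3 libraries of another, 51 of them in *myb107-2* and 23 in WT at 11 DAP, 27 in WT after 6 h of cold, 3 in *myb107-2* and 7 in WT after 48 h of cold, and 1 in WT at 13 DAP, which was AT2G25890. Only AT2G25890 was at 0 in exactly *myb107-2* at 11 DAP and WT at 13 DAP. Its zero counts entered its choice, so this is a description.

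Whether the genes changed with age was tested in WT at 13 DAP against 11 DAP, both at 22 °C. *OLEO1*, *OLEO2*, *OLEO4*, *CLO1* and *HSD1* rose, 5 of the 9 tested genes, where 5.22% of the 26245 genes tested were called higher, and none was called lower. On the log2 scale the median over the 9 genes came to 1.09, against 0.00 over all genes. The endosperm marker sum, nearly all *EPR1*, was higher, at 26636 to 30648 CPM at 13 DAP and 13407 to 18285 CPM at 11 DAP. The seed coat marker sum was lower, at 1055 to 1760 CPM at 13 DAP and 2773 to 2869 CPM at 11 DAP. *TT10* gave most of it, a mean of 940 of 1501 CPM at 13 DAP and 1864 of 2823 CPM at 11 DAP. The part of these markers in the results was not tested.

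*CLO1* had the largest log2 fold change of the 9 genes, with 1575, 1127 and 1208 CPM at 13 DAP and 224, 170 and 258 CPM at 11 DAP. Every library at 13 DAP was several times above every library at 11 DAP, with a log2 fold change of 2.55 (SE 0.23, adjusted p = 5.0e-06, edgeR), or 2.41 without WT 13 DAP replicate 1. *OLEO1* had 7069, 5829 and 6301 CPM at 13 DAP and 2262, 1914 and 2574 CPM at 11 DAP, a log2 fold change of 1.47 (SE 0.24, adjusted p = 0.00053, edgeR), or 1.41 without that replicate. The groups were far apart for both genes.

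*OLEO2* and *OLEO4*, both oleosins of the mature seed, followed *OLEO1* with smaller changes. *OLEO2* had 3659, 2658 and 2657 CPM at 13 DAP and 1397, 1133 and 1571 CPM at 11 DAP (log2 fold change 1.09, SE 0.22, adjusted p = 0.0032, edgeR). Without WT 13 DAP replicate 1, its highest library, the log2 fold change was 0.94, and without WT 11 DAP replicate 2, its lowest, 0.99, both under the minimum. *OLEO4* had 2054, 1541 and 1740 CPM at 13 DAP and 812, 621 and 894 CPM at 11 DAP (log2 fold change 1.16, SE 0.20, adjusted p = 0.00095, edgeR), and 1.06 without that replicate, still with a call.

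*HSD1* had 136, 182 and 230 CPM at 13 DAP and 32.2, 33.9 and 57.1 CPM at 11 DAP. The groups did not overlap, but the call was at the limit (log2 fold change 2.12, SE 0.69, adjusted p = 0.048, edgeR). The call was lost with DESeq2 (adjusted p = 0.26), with the summed counts of both copies (adjusted p = 0.083, edgeR), under the robust option (adjusted p = 0.13) and the older quasi-likelihood method of edgeR (adjusted p = 0.14) and in 5 of the 6 fits without 1 library, all but that without WT 13 DAP replicate 1, where the log2 fold change was 2.31.

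The other genes were not called. AT3G18570 averaged 42.5 ± 2.47 CPM at 13 DAP and 22.3 ± 4.17 CPM at 11 DAP, and AT1G48990 averaged 63.6 ± 2.74 CPM at 13 DAP and 41.1 ± 4.14 CPM at 11 DAP (SD, n = 3 each). Both had an adjusted p under 0.05 (0.0059 and 0.0047, edgeR) with log2 fold changes of 0.89 and 0.59, under the minimum. Without WT 13 DAP replicate 1 these were 0.89 and 0.58, and without WT 11 DAP replicate 1 AT3G18570 was called at 1.03. *OLEO3* had 713, 563 and 500 CPM at 13 DAP, on both sides of its range of 518 to 534 CPM at 11 DAP (log2 fold change 0.13, interval of 2 SE from -0.23 to 0.50), and its log2 fold change was -0.0037 without replicate 1 of WT at 13 DAP. AT3G01570 was likewise without a call, at 1982 ± 227 CPM at 13 DAP and 1676 ± 214 CPM at 11 DAP (log2 fold change 0.20, interval of 2 SE from -0.17 to 0.57), or 0.12 without that replicate.

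Whether the genes differed after 48 h of cold was tested in WT against 13 DAP, the group of the same age in days at 22 °C. The authors state that cold slows seed development, so cold and stage of development cannot be told apart here. All 9 genes had a lower mean after cold, and *OLEO1*, *OLEO2*, *OLEO3*, *OLEO4*, AT1G48990 and *CLO1* fell, 6 of the 9, where 4.09% of genes were called lower. The median log2 fold change was -1.10 against 0.00 over all genes. This comparison and that of 13 DAP with 11 DAP share the WT 13 DAP libraries. Without WT 13 DAP replicate 1, 5 of the 6 were called, all but *OLEO2*, whose log2 fold change was then -0.90, while *HSD1* was then called at -2.03. The endosperm marker sum, nearly all *EPR1*, was 14072 to 22115 CPM after 48 h of cold and 26636 to 30648 CPM at 13 DAP. The embryo meristem marker sum, nearly all *CUC1*, was 21.2 to 27.5 CPM after cold and 13.1 to 15.5 CPM at 13 DAP. The part of these markers was not tested.

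*OLEO1* had 2400, 2049 and 2621 CPM after 48 h of cold and 7069, 5829 and 6301 CPM at 13 DAP. Its libraries after cold overlapped those of 11 DAP and lay well below 13 DAP, with a log2 fold change of -1.42 (SE 0.24, adjusted p = 0.0012, edgeR), or -1.37 without WT 13 DAP replicate 1. *CLO1* had 468, 447 and 756 CPM after 48 h of cold and 1575, 1127 and 1208 CPM at 13 DAP, again without overlap (log2 fold change -1.21, SE 0.22, adjusted p = 0.0026, edgeR), and at -1.07 without that replicate. *OLEO3* had 250, 216 and 294 CPM after 48 h of cold and 713, 563 and 500 CPM at 13 DAP, and its log2 fold change of -1.20 (SE 0.18, adjusted p = 0.00067, edgeR) came with no call between 13 DAP and 11 DAP. Without that replicate it was -1.07 for *OLEO3* as well. AT1G48990 averaged 30.2 ± 2.93 CPM after 48 h of cold and 63.6 ± 2.74 CPM at 13 DAP (SD, n = 3 each; log2 fold change -1.05 with and without that replicate, adjusted p = 0.00014, edgeR).

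*OLEO2* averaged 1432 ± 299 CPM after 48 h of cold and 2991 ± 578 CPM at 13 DAP (SD, n = 3 each; log2 fold change -1.04, adjusted p = 0.0065, edgeR). *OLEO4* averaged 815 ± 163 CPM after 48 h of cold and 1779 ± 259 CPM at 13 DAP (SD, n = 3 each; log2 fold change -1.10, adjusted p = 0.0022, edgeR), and -1.01 without WT 13 DAP replicate 1. Without replicate 2 of WT after 48 h of cold, the lowest of its group for both genes, neither was called, at -0.94 for *OLEO2* and -0.997 for *OLEO4*. AT3G18570 had a log2 fold change of -0.81 (adjusted p = 0.014, edgeR), AT3G01570 one of -0.25 (adjusted p = 0.46) and *HSD1* one of -1.83 (adjusted p = 0.10), without a call. Without WT 13 DAP replicate 1 these were -0.82 for AT3G18570 and -0.18 for AT3G01570.

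**Figure D3:**
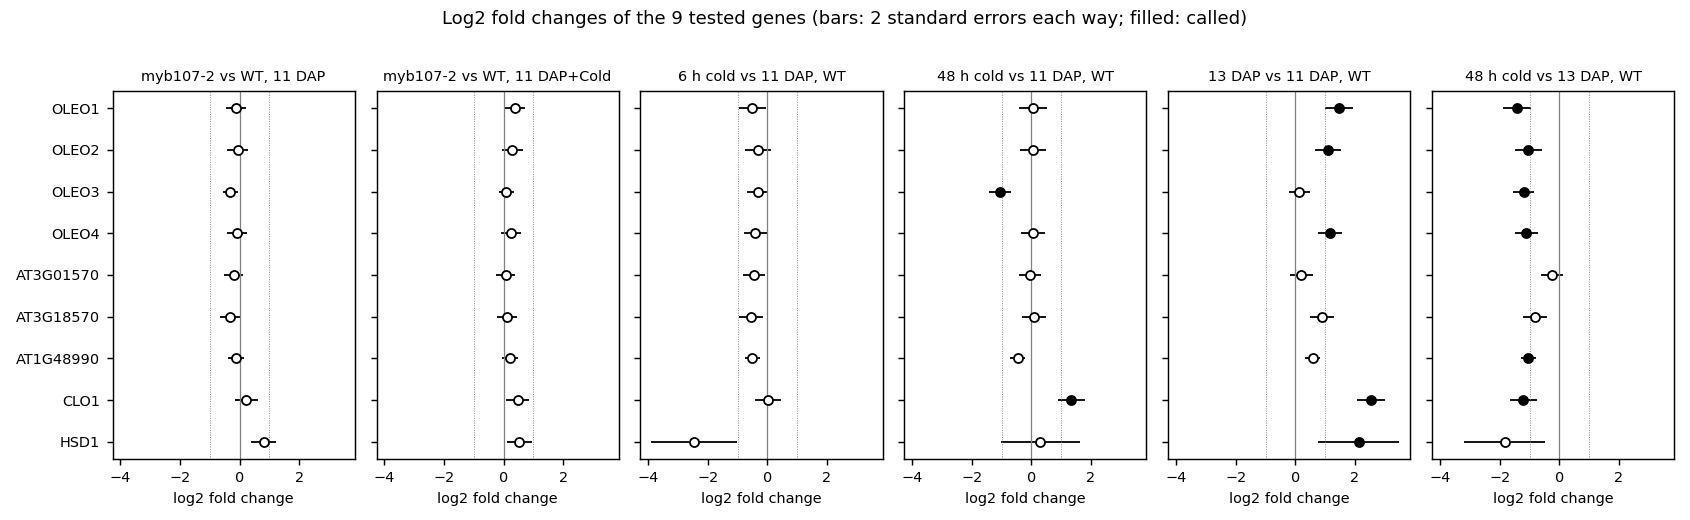
Log2 fold change of the 9 tested genes in 6 comparisons, 1 panel each, with bars of 2 standard errors each way, filled points for called genes and dotted lines at a log2 fold change of 1 in either direction. No point is filled in the genotype panels, while 5 are filled at 13 DAP over 11 DAP and 6 at 48 h of cold over 13 DAP.

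Against 11 DAP, the course in cold was tested in WT at 6 h and 48 h. After 6 h none of the 9 genes was called, where 1.37% of genes were called in either direction, with 5 genes at an unadjusted p under 0.05. The 9 genes had a median log2 fold change of -0.45 against -0.01 over all genes, and 8 of them a lower mean than at 11 DAP. The seed coat marker sum, most of it *TT10*, was lower as well, at 1403 to 2056 CPM after 6 h and 2773 to 2869 CPM at 11 DAP. The endosperm marker sum, nearly all *EPR1*, was 6428 CPM in replicate 1 after 6 h, against 13407 to 18285 CPM at 11 DAP. The part of these markers was not tested. *OLEO1* had 1328, 1698 and 1771 CPM after 6 h of cold, below its range of 1914 to 2574 CPM at 11 DAP, with a log2 fold change of -0.50 (SE 0.23, adjusted p = 0.30, edgeR). *HSD1* was at 0, 11.7 and 10.2 CPM after 6 h, below 32.2 CPM, the lowest library at 11 DAP. Its log2 fold change of -2.46 had an adjusted p of 0.089 (edgeR), and without replicate 1 of WT after 6 h of cold, the library at 0, it was called at -1.90. AT1G48990 had an adjusted p of 0.047 (edgeR) with a log2 fold change of -0.52, under the minimum. AT5G50700, the second copy of *HSD1*, was at 0 in the same library.

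After 48 h of cold, *CLO1* rose and *OLEO3* fell in WT against 11 DAP, 1 of the 9 genes in each direction, where 2.8% of genes were called higher and 3.2% lower. The seed coat marker sum, most of it *TT10*, was lower, at 1098 to 2008 CPM after 48 h and 2773 to 2869 CPM at 11 DAP. The embryo meristem sum, nearly all *CUC1*, was higher, at 21.2 to 27.5 CPM after 48 h and 13.6 to 18.8 CPM at 11 DAP. The part of these markers was not tested. *CLO1* had 468, 447 and 756 CPM after 48 h and 224, 170 and 258 CPM at 11 DAP, without overlap (log2 fold change 1.34, SE 0.22, adjusted p = 0.0019, edgeR). *OLEO3* had 250, 216 and 294 CPM after 48 h and 534, 518 and 521 CPM at 11 DAP, also far apart (log2 fold change -1.07, SE 0.18, adjusted p = 0.0022, edgeR). Without replicate 2 of WT after 48 h of cold, *OLEO3* was at -0.96, under the minimum. *OLEO1*, *OLEO2*, *OLEO4*, AT3G01570 and AT3G18570 had log2 fold changes from -0.05 to 0.08, and for *OLEO1* the interval of 2 SE ran from -0.41 to 0.51. AT1G48990 was lower by less than the minimum (log2 fold change -0.46, adjusted p = 0.034, edgeR).

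In *myb107-2*, *CLO1* rose at 11 DAP+Cold against 11 DAP, the only one of the 9 genes called, where 4.14% of genes were called higher. It had 897, 719 and 718 CPM at 11 DAP+Cold and 249.7, 262 and 259 CPM at 11 DAP, a log2 fold change of 1.59 (SE 0.20, adjusted p = 3.4e-05, edgeR). *OLEO3* had 299, 247 and 275 CPM at 11 DAP+Cold and 434, 425 and 419 CPM at 11 DAP. It was lower in every library, by less than the minimum (log2 fold change -0.65, SE 0.13, adjusted p = 0.0018, edgeR). *OLEO1* and AT3G18570 had an adjusted p under 0.05 with log2 fold changes of 0.56 and 0.52. The marker sums did not overlap between these groups either. *EPR1* gave nearly all of the endosperm sum, *CUC1* nearly all of the embryo meristem sum and *TT10* most of the seed coat sum. At 11 DAP+Cold and 11 DAP the endosperm markers summed to 18732 to 23944 CPM and 10723 to 15979 CPM, the seed coat markers to 1567 to 1794 CPM and 1869 to 2797 CPM, and the embryo meristem markers to 28.1 to 31.8 CPM and 19.0 to 22.3 CPM. Their part was not tested, and cold and age cannot be told apart.

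Ratios between genes of 1 library do not depend on its scaling, and they were compared per kb of exon as a description. *OLEO3* was at 0.104 ± 0.00261 of *OLEO1* in *myb107-2* and 0.127 ± 0.00495 in WT at 11 DAP+Cold, against 0.243 ± 0.0222 in *myb107-2* and 0.280 ± 0.0403 in WT at 11 DAP (SD, n = 3 each). At 13 DAP in WT the ratio was 0.109 ± 0.0134, near that after 48 h of cold, while the level of *OLEO1* was 2357 ± 289 CPM in WT after 48 h of cold and 6399 ± 626 CPM at 13 DAP. *OLEO3* itself was at 253 ± 38.98 CPM in WT after 48 h of cold and 592 ± 109 CPM at 13 DAP. At 11 DAP in WT, *OLEO3* had 525 ± 8.47 CPM and *OLEO1* 2250 ± 330 CPM. So different genes moved against 11 DAP, mainly *OLEO3* in cold and *OLEO1* at 13 DAP. The ratio of *OLEO3* to *OLEO1* was low in the 3 older groups, and no library of these groups reached the lowest ratio of the other groups. The part of age and of cold was not tested. In WT after 6 h of cold it was 0.460, 0.246 and 0.264, with replicate 1 above all other libraries.

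*CLO1* moved the other way. Its level was 8.25 ± 0.254% of the summed level of the 5 seed oleosins in *myb107-2* and 7.02 ± 1.21% in WT at 11 DAP+Cold, against 3.52 ± 0.330% in *myb107-2* and 2.68 ± 0.203% in WT at 11 DAP (SD, n = 3 each). At 13 DAP in WT it was 7.94 ± 0.428%, within the range of the WT libraries after 48 h of cold. AT3G01570 held 16.5 ± 0.311% of the seed oleosin sum in WT at 13 DAP, 28.6 ± 0.909% in WT after 48 h of cold and 28.4 ± 0.182% in WT at 11 DAP. For AT3G01570 the WT libraries after 48 h of cold overlapped those of 11 DAP and lay apart from those of 13 DAP.

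**Figure D4:**
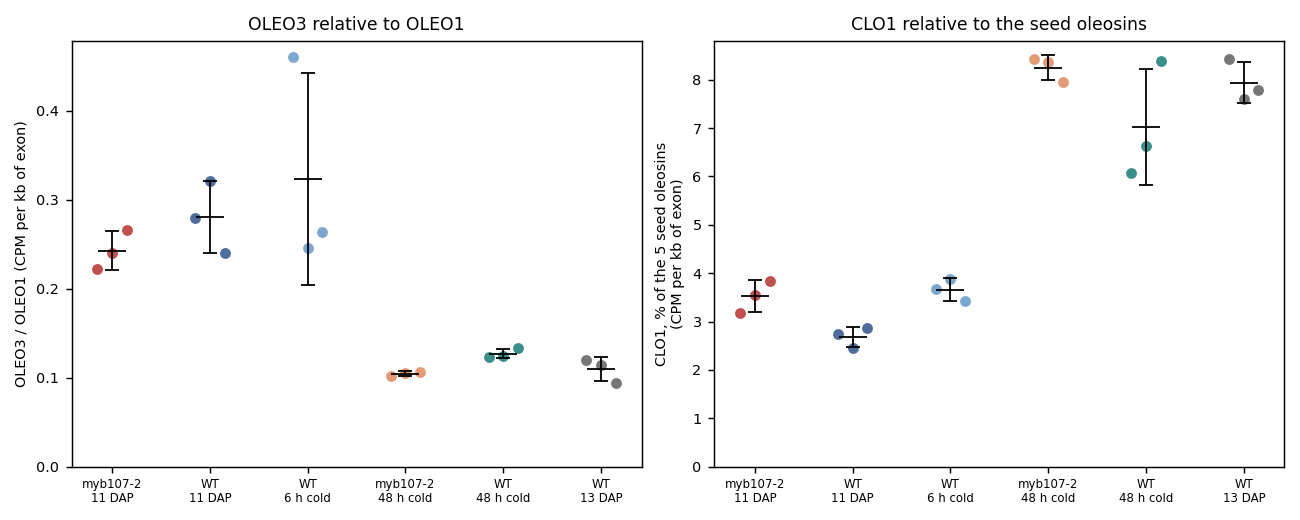
Level of *OLEO3* relative to *OLEO1* (left) and of *CLO1* as a percent of the 5 seed oleosins (right), both from CPM per kb of exon on linear axes from 0, with points for libraries and bars for the mean ± SD of 3 libraries. After 48 h of cold and at 13 DAP all libraries lie at or below 0.133 on the left and at or above 6.06% on the right.

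Over the 18 libraries, *OLEO1*, *OLEO2*, *OLEO4* and AT3G18570 varied together, with Pearson correlations of log2(CPM + 0.5) between 0.88 and 0.99 for their 6 pairs, and *OLEO1* and *OLEO3* with 0.29. Libraries of a group share age and treatment, so that these values describe the pattern and are not a test. Among 17363 genes with a mean of at least 1 CPM, the genes most like *OLEO1* were *OLEO4* (0.99), AT3G23180 (0.99) and *OLEO2* (0.98). The genes most like AT2G25890 were *HAM4* (AT4G36710), *scpl46* (AT2G33530) and *UGE5* (AT4G10960), each with 0.92. That ranking includes the zero counts of AT2G25890, which entered its choice, so it supports no link between these genes.

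Around these genes, 60 genes of oil bodies, oil metabolism and its regulation were listed, chosen with earlier results known. At 13 DAP against 11 DAP in WT, 13 of the 56 tested were called higher and 6 lower, or 12 and 6 without WT 13 DAP replicate 1, where 5.22% of all genes were called higher and 5.52% lower. After 48 h of cold against 13 DAP, 3 were called higher and 10 lower, or 3 and 11 without that library, where 3.83% of all genes were called higher and 4.09% lower. Between the genotypes 0 of 57 were called at 11 DAP (edgeR), and 5 were higher and none lower at 11 DAP+Cold, where 0.706% of all genes were called higher. The 23 changes of named list genes that involve WT at 13 DAP were all called without its replicate 1, with shifts of the log2 fold change of up to 0.41.

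Of the other caleosins, 3 of 5 rose and 1 fell at 13 DAP. *ATPXG2* (AT5G55240), a peroxygenase of this family, averaged 221 ± 36.3 CPM at 13 DAP and 41.5 ± 8.97 CPM at 11 DAP (SD, n = 3 each; log2 fold change 2.37, adjusted p = 3.1e-06, edgeR), and 50.9 ± 11.7 CPM after 48 h of cold. AT1G70680 averaged 434 ± 39.3 CPM at 13 DAP and 50.9 ± 9.57 CPM at 11 DAP (SD, n = 3 each; log2 fold change 3.06, adjusted p = 5.9e-06, edgeR). AT1G70680 also rose in *myb107-2* at 11 DAP+Cold, with 365 ± 51.3 CPM in *myb107-2* and 62.5 ± 31.3 CPM in WT (SD, n = 3 each; log2 fold change 2.55, adjusted p = 2.8e-05, edgeR). Its genotype effect was larger at 11 DAP+Cold than at 11 DAP by 2.22 on the log2 scale (SE 0.37, adjusted p = 0.017, edgeR), the only gene of the 57 called in that test, and *CLO1* was not called there (adjusted p = 1.00). AT1G23250 had 9.85 ± 1.40 CPM in *myb107-2* and 2.01 ± 0.726 CPM in WT at 11 DAP+Cold, and it was listed at 0 in every library of both genotypes at 11 DAP.

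Of the other steroleosins, 2 of 5 rose at 13 DAP, of which 1 is the copy of *HSD1*. *HSD5* (AT4G10020), which shares 51.2% of its exon bases with a gene on the other strand, averaged 155 ± 15.0 CPM at 13 DAP and 8.74 ± 2.67 CPM at 11 DAP (SD, n = 3 each; log2 fold change 4.12, adjusted p = 6.7e-07, edgeR). It also rose in *myb107-2* at 11 DAP+Cold, with 26.8 ± 5.44 CPM in *myb107-2* and 12.2 ± 4.20 CPM in WT (log2 fold change 1.15, adjusted p = 0.012, edgeR). *HSD6* (AT5G50770) fell after 48 h of cold against 13 DAP, with 29.3 ± 6.499 CPM and 66.8 ± 8.73 CPM (log2 fold change -1.17, adjusted p = 0.00033, edgeR).

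Of the oleosins known from the pollen coat, 2 of 8 rose and 1 fell at 13 DAP. *GRP17* (AT5G07530) averaged 17.97 ± 1.17 CPM at 13 DAP and 1.06 ± 0.287 CPM at 11 DAP (SD, n = 3 each; log2 fold change 4.05, adjusted p = 2.7e-06, edgeR). Both *GRP17* and *GRP19* (AT5G07550) rose in *myb107-2* at 11 DAP+Cold, *GRP17* with 5.91 ± 1.67 CPM in *myb107-2* and 1.31 ± 0.476 CPM in WT (adjusted p = 0.0012, edgeR), *GRP19* with 9.41 ± 0.851 CPM in *myb107-2* and 2.88 ± 1.15 CPM in WT (adjusted p = 0.017, edgeR). Levels of these genes were low.

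Of 11 other lipid droplet proteins, 2 rose and 1 fell at 13 DAP. AT1G05510 (*OBAP1a*), an oil body-associated protein, averaged 949 ± 423 CPM at 13 DAP and 40.8 ± 8.94 CPM at 11 DAP (SD, n = 3 each; log2 fold change 4.50, adjusted p = 1.1e-06, edgeR), or 4.09 without WT 13 DAP replicate 1. Like *CLO1* it also rose at 48 h of cold against 11 DAP, with 195 ± 59.6 CPM in WT after cold (log2 fold change 2.24, adjusted p = 0.00044, edgeR), and in *myb107-2* with 338 ± 60.6 CPM at 11 DAP+Cold and 65.6 ± 21.4 CPM at 11 DAP (adjusted p = 1.0e-05, edgeR). AT5G16460, a seipin, averaged 8.97 ± 2.28 CPM at 13 DAP and 0.810 ± 0.349 CPM at 11 DAP (log2 fold change 3.42, adjusted p = 8.9e-05, edgeR).

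Of 11 genes of triacylglycerol synthesis, 1 rose and 2 fell at 13 DAP, and none of the 5 breakdown genes was called in any comparison. *WRI1*, the activator of fatty acid synthesis, averaged 26.9 ± 5.19 CPM at 13 DAP and 69.0 ± 9.31 CPM at 11 DAP (log2 fold change -1.40, adjusted p = 4.3e-05, edgeR). *ROD1*, which moves phosphocholine between lipid pools, averaged 18.4 ± 4.69 CPM at 13 DAP and 51.5 ± 5.18 CPM at 11 DAP (log2 fold change -1.51, adjusted p = 3.6e-05, edgeR).

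Of 11 regulators, 3 rose and 1 fell at 13 DAP. *ABI3*, the B3 factor of seed maturation, averaged 142 ± 23.3 CPM at 13 DAP and 42.4 ± 8.38 CPM at 11 DAP (log2 fold change 1.71, adjusted p = 2.0e-05, edgeR), and 47.0 ± 5.90 CPM after 48 h of cold, lower than at 13 DAP (log2 fold change -1.58, adjusted p = 0.00011, edgeR). *NF-YB6*, a LEC1-like subunit, was lower at 13 DAP, with 110 ± 24.4 CPM against 297 ± 38.7 CPM at 11 DAP (log2 fold change -1.47, adjusted p = 6.8e-05, edgeR). *ABI5*, a bZIP factor, was the only list gene called higher after 6 h of cold, with 7.30 ± 2.96 CPM against 1.68 ± 0.129 CPM at 11 DAP (log2 fold change 2.09, adjusted p = 0.012, edgeR), and *HSD5* the only one called lower, with 3.45 ± 0.846 CPM against 8.74 ± 2.67 CPM (adjusted p = 0.019, edgeR).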

How the data were processed

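Total RNA of dissected seed coats and endosperms was made into stranded mRNA libraries and sequenced, and per the submitters' processing notes in the labels the authors used HISAT2, StringTie and DESeq2. The deposited values are the estimated counts (expected counts) per gene that the authors obtained with StringTie, whole numbers without normalization. Tool versions, genome build and strand setting are not given in the sources used here. The totals exceed the reads stated in the methods, so that a count need not be a read. Each file lists 37985 rows, and 22 genes with a date in place of a count in 5 files were left out. Rows without a nuclear identifier, a median of 0.851% of counts, stayed out of all tests. All 37883 nuclear identifiers matched TAIR10.1, which gave the gene models and sequences.

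TMM scaling and quasi-likelihood F-tests were run in R 4.3.3 with edgeR 4.0.16, in 1 fit of the 12 libraries of both genotypes (26068 genes) and 1 fit of the 12 WT libraries (26245 genes). Calls and standard errors (SE, the size of the log2 fold change over the square root of F) are per gene, p-values are Benjamini-Hochberg adjusted over all genes, and they measure the spread between 3 pools of seeds. A count of 3, the limit of detection, was 0.0357 to 0.0695 CPM before TMM scaling. Alternatives were RLE and upper-quartile scaling, leaving out the ribosomal RNA units, filterByExpr, DESeq2 1.42.0, the legacy and robust methods of edgeR, a fit of all 18 or only 6 libraries, calls by adjusted p alone, a block for the replicate number and leaving out each library. The sum of both *HSD1* copies was added after seeing the data. The fit was tested on simulated data.

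Between libraries of WT at 13 DAP and WT at 11 DAP with the same replicate number, deviations from the group means correlated by 0.27, 0.12 and 0.21. Over all pairs of groups compared these correlations ran from -0.45 to 0.27, so they do not settle whether replicate numbers pair libraries. The tests given above use no pairing, and a block for the replicate number was fitted only as an alternative. In no other pair of groups compared were all 3 over 0.1.

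The genes and lists were chosen with earlier results of these data known. Named genes are the 10 genes, overlapping, neighbouring or copied genes, up to 2 called genes with the smallest p per list and comparison, and the 3 most like *OLEO1* and AT2G25890. Some promoter sequences are not reported here.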

Additional observations from a re-analysis of the deposited data

Results flagged for a closer look

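AT2G25890 moved in opposite directions in *myb107-2* at the 2 times. All 3 mutant libraries lay below all WT libraries at 11 DAP, a difference of the means of -8.28 CPM, and above all of them at 11 DAP+Cold, a difference of 13.6 CPM. This difference was not tested, since the zero counts of the gene entered the choice of genes, and the gene overlaps *AUR2* on the other strand.

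The genotype effect on the caleosin gene AT1G70680 differed between 11 DAP+Cold and 11 DAP by 2.22 on the log2 scale (edgeR, adjusted p = 0.017). Groups of 3 libraries were not searched for single libraries that stand apart, except for zero counts. In that search 7 genes were at 0 in 1 library and at 10 CPM or more in the other 17, among them *HSD1* and AT5G50700.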

How the results depend on the processing

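Of 1269 log2 fold changes recomputed under other choices, 1223 kept their direction and side of the threshold, 15 lost a call, 9 gained one and 22 changed sign, all 22 on leaving out a library. With all libraries kept, 774 of 783 were the same and none changed sign, and the exceptions were all *HSD1*. Of the 60 levels of a gene in a group, 40 moved by over 1 SD with the ribosomal RNA units left out, to at most 1.17 times the level given. With RLE or upper-quartile scaling 0 did. The number of called genes moved by over 1.5 times as follows. In *myb107-2*, 11 DAP+Cold against 11 DAP, it was 4 with no fold change minimum. In WT after 6 h of cold it was 1 in the fit of all 18 libraries, 1 with the ribosomal RNA units left out and 1 with no fold change minimum. Smaller moves were to 4 at 13 DAP against 11 DAP with DESeq2, the legacy and robust methods and the summed copies, to 7 there with no minimum, to 7 after 48 h of cold against 13 DAP with all 18 or only 6 libraries, the ribosomal RNA units left out or no minimum, and to 3 in WT after 48 h of cold against 11 DAP with no minimum. Leaving out 1 library gave 0 to 1 called genes between the genotypes at 11 DAP (1 without WT replicate 3), 0 to 1 after 6 h of cold (1 without its replicate 1), 1 to 2 after 48 h of cold in WT against 11 DAP (1 without WT 48 h replicate 2), 3 to 5 at 13 DAP (3 without WT 11 DAP replicate 2) and 4 to 6 after 48 h of cold against 13 DAP. The cause was not tested.

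Log2 fold changes near 0 changed sign on leaving out a library. Between the genotypes at 11 DAP the range was -0.18 to 0.032 for *OLEO2* and -0.24 to 0.00055 for *OLEO4*. At 11 DAP+Cold it was -0.0043 to 0.20 for *OLEO3* and -0.054 to 0.15 for AT3G01570. In *myb107-2* with cold it was -0.17 to 0.031 for AT1G48990 and -0.056 to 0.067 for *HSD1*. In WT after 48 h of cold against 11 DAP it was -0.045 to 0.15 for *OLEO1*, -0.11 to 0.17 for *OLEO2*, -0.094 to 0.18 for *OLEO4*, -0.14 to 0.031 for AT3G01570 and -0.048 to 0.22 for AT3G18570. After 6 h it was -0.12 to 0.14 for *CLO1*, and at 13 DAP -0.0037 to 0.24 for *OLEO3*.

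With a replicate block the number of called genes was 0 in both genotype comparisons, their difference and 6 h of cold, 1 in *myb107-2* with cold, 2 in WT with 48 h of cold, 5 at 13 DAP against 11 DAP and 6 after 48 h of cold against 13 DAP, as without it.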
